A study of Rattus norvegicus with 28 samples.

Results

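The IGF axis is described here through 10 genes of rat hepatocytes: the growth factor Igf1, its receptor Igf1r, the growth hormone receptor Ghr, the binding proteins Igfbp1 to Igfbp6, and Igfals, the acid-labile subunit. They were chosen by gene symbol, and the arrays carried 18 probes for them among 41012 probes for 37771 gene names. All 10 genes and all 18 probes passed the filter on dim probes, and 34816 genes were tested in all. At the upper doses Igf1 RNA was lower with TCDD and with PeCDF, Ghr RNA was lower with TCDD, and Igfbp1 RNA was higher with PeCDF. The PeCDF calls depended on the processing: 8 of 16 alternative fits kept that of Igf1 and 7 of 15 that of Igfbp1. Igfbp1 was also above 0 on all arrays of TCDF 10 nM and of each lower dose, with no call. None of the 10 genes was called at a lower dose or between untreated and DMSO cells.

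In the liver, growth hormone binds Ghr on hepatocytes, and the kinase Jak2 and the transcription factor Stat5b carry the signal to genes that include Igf1, Igfals and the feedback inhibitors Socs2 and Cish. Most Igf1 in blood comes from hepatocytes and travels in a complex with Igfbp3 and Igfals, while the other binding proteins hold it in smaller complexes or in tissues. Igfbp1 is a hepatocyte protein that insulin represses by keeping FoxO factors out of the nucleus, and glucocorticoids raise it. Adult hepatocytes carry little Igf1r, so the hormone acts mainly on other tissues. TCDD is a chlorinated dioxin, TCDF and PeCDF are chlorinated dibenzofurans of which PeCDF carries more chlorine, and all 3 compounds activate the aryl hydrocarbon receptor (AHR), a ligand-bound transcription factor.

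Hepatocytes were isolated from rat A and rat B, 2 adult females of the Sprague-Dawley strain, and plated on Matrigel in medium with insulin (6.25 ug per mL), transferrin, selenium and 0.1 uM dexamethasone. After 48 h they were treated for 24 h with TCDD at 0.01 or 1 nM, TCDF at 0.1 or 10 nM, PeCDF at 0.02 or 2 nM, 0.1% DMSO alone, or nothing (untreated), and RNA of 3 dishes was pooled. All groups thus shared the insulin and the dexamethasone. Each of 28 Agilent 2-colour arrays set the RNA of 1 of 7 test groups against DMSO RNA of the same rat, with 4 arrays per group: 2 rats, each in 2 dye orientations, called plus and minus. All 7 comparisons with DMSO therefore take their control cells from the same 2 rats. The labels do not say if the arrays of a rat all received the same DMSO RNA preparation. By the dates in the file headers, spot data of the untreated and TCDD arrays were extracted in 1 year and those of the furans in another. Each year is called a session here, so TCDD and the furans are also separated by session.

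A value below is a log2 ratio of test RNA over DMSO RNA, its error is the standard error from a limma fit of n = 2 rats per group, and a call means an adjusted p under 0.05 (Benjamini-Hochberg, taken across every gene tested). The number of rats, 2 per group, limits the precision. The AHR target genes checked the treatment: 7 of 7 measured rose with TCDD 1 nM, 6 of them with PeCDF 2 nM and 5 of them with TCDF 10 nM. Of all genes, 10.6%, 4.45% and 2.37% were called in these groups. The spots of 2 of the targets, Cyp1a1 and Cyp1a2, were saturated on 20 and 9 arrays in the test channel. Cyp1b1, a cytochrome P450, rose by 3.93 ± 0.15 with TCDD 1 nM (adjusted p = 8.9e-07). All 12 hepatocyte markers, Alb and Hnf4a among them, were well above background on every array. Markers of other liver cells were present too: all 16 Kupffer and leukocyte genes were well above background on all 28 arrays in the DMSO channel. So were all but 1 of 14 stellate cell and fibroblast genes, all but 2 of 9 endothelial genes and all but 2 of 12 cholangiocyte genes. The exceptions included the duct marker Krt7, above background on 14 of the 28 arrays, and the endothelial marker Pecam1, on 15.

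The 250 bases before the start sites of Igf1, Ghr and Igfbp1 are given because these are the 3 genes that were called; they are from RefSeq (GRCr8), 5′ to 3′ on the strand of the gene. They lie at chr7:24172282-24172531 (plus strand) for Igf1, chr2:54432076-54432325 (minus strand) for Ghr and chr14:86261027-86261276 (plus strand) for Igfbp1. Capitals mark matches to 4 motifs searched on both strands: GCGTG, the core bound by the AHR with its partner Arnt; TGTTTTG and TATTTTG, forms of the insulin response element to which FoxO factors bind; and TTCNNNGAA, the Stat5 motif.
Igf1: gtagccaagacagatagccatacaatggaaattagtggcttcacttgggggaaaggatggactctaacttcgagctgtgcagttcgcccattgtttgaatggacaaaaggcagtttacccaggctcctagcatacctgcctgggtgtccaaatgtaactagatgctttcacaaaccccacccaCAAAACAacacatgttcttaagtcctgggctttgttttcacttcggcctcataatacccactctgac
Ghr: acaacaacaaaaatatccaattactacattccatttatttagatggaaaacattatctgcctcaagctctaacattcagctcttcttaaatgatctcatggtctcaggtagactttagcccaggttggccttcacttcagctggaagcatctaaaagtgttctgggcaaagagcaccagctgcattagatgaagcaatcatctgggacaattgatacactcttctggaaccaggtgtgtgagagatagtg
Igfbp1: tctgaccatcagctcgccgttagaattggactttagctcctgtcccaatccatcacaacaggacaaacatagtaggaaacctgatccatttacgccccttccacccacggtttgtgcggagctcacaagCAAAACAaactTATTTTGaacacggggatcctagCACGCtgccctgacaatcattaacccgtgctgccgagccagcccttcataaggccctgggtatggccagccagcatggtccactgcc
In windows from 250 bases before to 50 after the start, the Igf1 promoter held a single match, TGTTTTG read on the other strand as CAAAACA, beginning at position -67. The Igfbp1 promoter held CAAAACA at -121, TATTTTG at -110 and the AHR core, read as CACGC, at -87. The Ghr promoter held no match to these letters. GCGTG was in 29.7% of 33469 rat promoters and in 4 of the 10 IGF axis promoters, those of Igf1r, Igfbp1, Igfbp2 and Igfbp3. The longer AHR motif TNGCGTG, which contains GCGTG, was in 4.89% of all promoters and in none of the 10. TGTTTTG was in 6.28%, TATTTTG in 4.96% and TTCNNNGAA in 8.87% of all promoters, the last in none of the 10. Igfbp1 and Igfbp3 are neighbours on chromosome 14, and Igfbp2 and Igfbp5 on chromosome 9, in the same RefSeq table.

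Igf1, the growth factor itself, was lower with TCDD 1 nM on every array. Its ratios were -0.34 and -0.36 in rat A (plus and minus array) and -0.50 and -0.38 in rat B. With TCDD 0.01 nM they were 0.17 and 0.09 in rat A and 0.09 and 0.03 in rat B, so the arrays of the 2 TCDD doses did not overlap. The fitted difference from DMSO was -0.40 ± 0.06 at 1 nM, 1.32-fold lower (adjusted p = 0.00207, 95% interval -0.53 to -0.26). At 0.01 nM it was 0.09 ± 0.06 (adjusted p = 0.712). The step between the doses was -0.49 ± 0.08 (adjusted p = 0.0117), 1 of 10 IGF axis genes called there, where 3.74% of all genes were called and 2.35% were lower. The TCDD 1 nM call was lost without rat B of that group, at a ratio of -0.35 and an adjusted p of 0.053, and with arrays scaled by median centring, at -0.26 and 0.865. The dose step was called in 14 of 18 alternatives.

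With TCDD 1 nM, Igf1 and Ghr were 2 of 10 IGF axis genes called, both lower, beside 10.6% of all genes called and 5.94% lower. The median of the 10 genes was 0.00 and that of all genes -0.001. In RNA from a culture, fewer cells that hold a transcript and less of it per cell cannot be told apart.

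**Figure D1:**
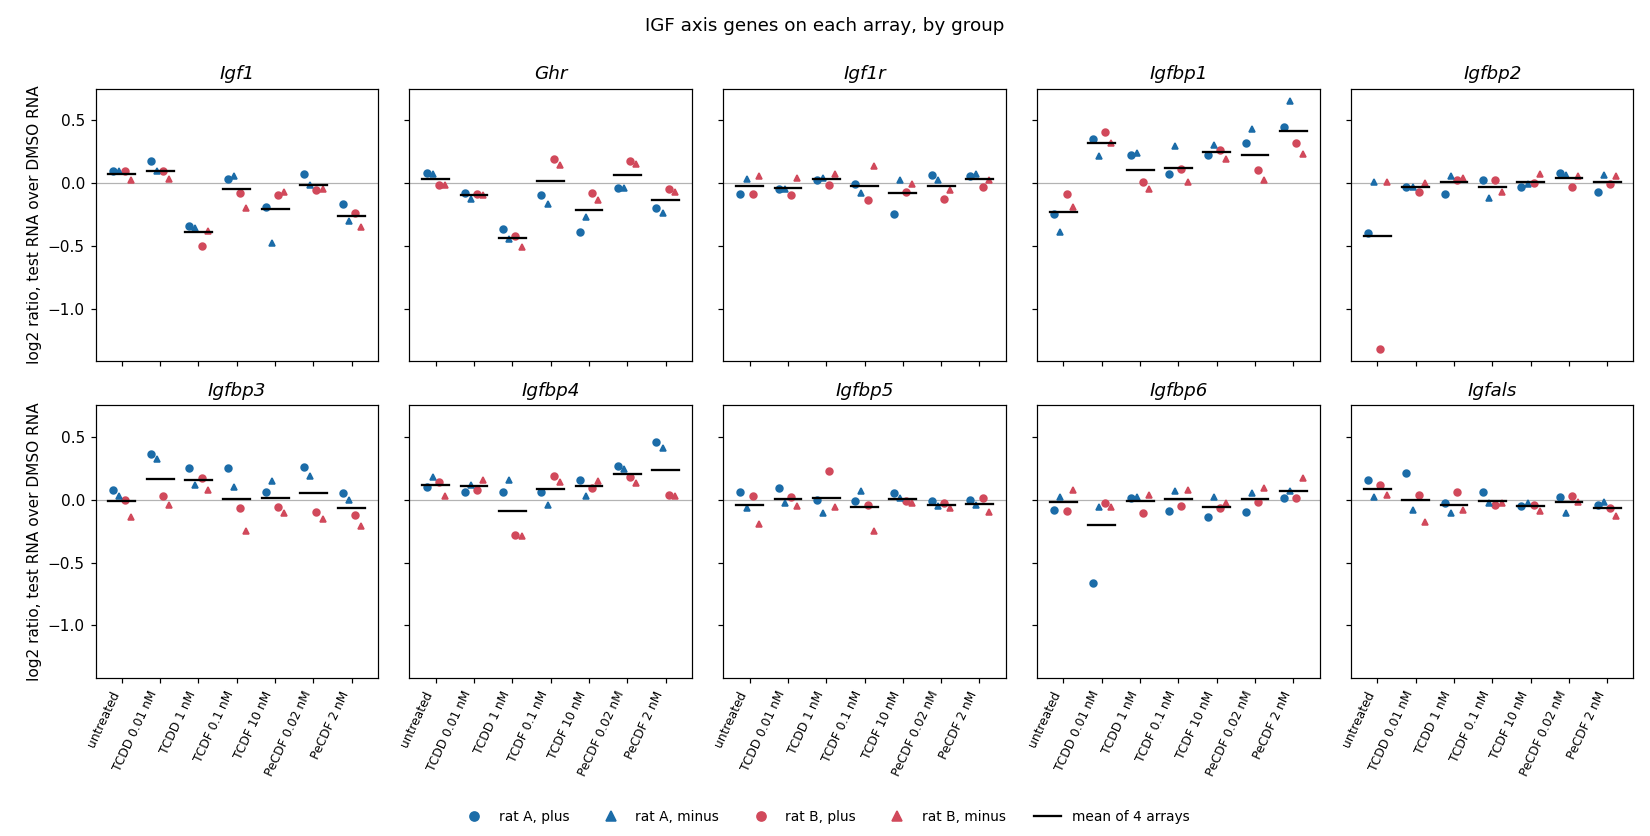
Log2 ratio of test RNA over DMSO RNA (y axis) for each of the 10 IGF axis genes in the 7 groups (x axis); points are single arrays, coloured by rat and shaped by dye orientation, and bars are means of 4 arrays. Igf1 and Ghr lie below 0 on all 4 arrays of TCDD 1 nM, and Igfbp1 lies between 0.23 and 0.65 with PeCDF 2 nM.

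With PeCDF 2 nM the Igf1 ratios were -0.17 and -0.30 in rat A and -0.24 and -0.35 in rat B. All 4 arrays were below 0 and below the 4 arrays of PeCDF 0.02 nM, which ran from -0.06 to 0.07. The fit gave -0.27 ± 0.06, 1.20-fold lower (adjusted p = 0.0359, interval -0.40 to -0.13). Without either rat of this group the call was lost, at -0.29 (adjusted p = 0.247) without rat A and -0.24 (adjusted p = 0.273) without rat B, and 8 of 16 alternatives kept it. The step from 0.02 to 2 nM was -0.25 ± 0.08 and was not called (adjusted p = 0.644). The plus array of rat B with PeCDF 2 nM had 334 spots marked as outliers, where each other array had 2 to 94.

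With TCDF 10 nM the Igf1 ratios were -0.19 and -0.48 in rat A and -0.10 and -0.07 in rat B. Every array was below 0, but the 2 arrays of rat A differed from each other by more than the 2 of rat B did. The fit gave -0.21 ± 0.06 (adjusted p = 0.121, interval -0.35 to -0.08), which did not pass, and median centring turned it to 0.42 (adjusted p = 0.122). At the lower doses Igf1 stood at -0.05 ± 0.06 with TCDF 0.1 nM (adjusted p = 0.967) and -0.02 ± 0.06 with PeCDF 0.02 nM (adjusted p = 0.998). Untreated cells had 0.07 ± 0.06 (adjusted p = 0.782).

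From lowest to highest, the Igf1 ratios ran TCDD 1 nM, PeCDF 2 nM, TCDF 10 nM, TCDF 0.1 nM, PeCDF 0.02 nM, untreated and TCDD 0.01 nM. The 3 upper doses came first, and the intervals of each neighbouring pair in that order overlapped. The doses of the 3 compounds differ, so these values stand side by side and the compounds were not compared.

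The 5 Igf1 probes gave ratios of different size with TCDD 1 nM. The brightest, A_44_P366723, stands for the gene above, and its spot was saturated on 1 array in the test channel and on 5 in the DMSO channel. The next brightest, A_44_P126021, designed on the 5′ end of a class C Igf1 transcript, was unsaturated on every array. Its ratios were -0.44 and -0.52 in rat A and -0.77 and -0.90 in rat B, all below those of TCDD 0.01 nM, which ran from -0.01 to 0.09. It fell by 0.66 ± 0.07 in the fit of single probes, 1.58-fold (adjusted p = 0.000294), and its step between the TCDD doses was -0.71 ± 0.10 (adjusted p = 0.0037).

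The probe for exon 6 of Igf1, A_44_P1044658, separated the 2 rats. With TCDD 1 nM it read -0.31 and -0.33 in rat A and -1.16 and -1.22 in rat B, and with PeCDF 2 nM -0.09 and -0.06 in rat A and -0.67 and -0.60 in rat B. With TCDF 10 nM the rats stood the other way, at -0.49 and -0.33 in rat A and -0.07 and 0.03 in rat B. Within a rat the 2 dye orientations were close to each other in the TCDD and PeCDF pairs, and between the rats the values did not overlap. The TCDD 1 nM mean, -0.76 ± 0.22, was not called (adjusted p = 0.0599).

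Of the remaining Igf1 probes, A_44_P421499 had -0.19 ± 0.05 with TCDD 1 nM (adjusted p = 0.0505). A_44_P421502, whose median DMSO signal of 344 stood over a background of 286, had -0.02 ± 0.03 (adjusted p = 0.778). With PeCDF 2 nM the brightest probe alone was called; A_44_P126021 had -0.18 ± 0.07 (adjusted p = 0.19). Differences between probes of a gene were not tested.

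**Figure D2:**
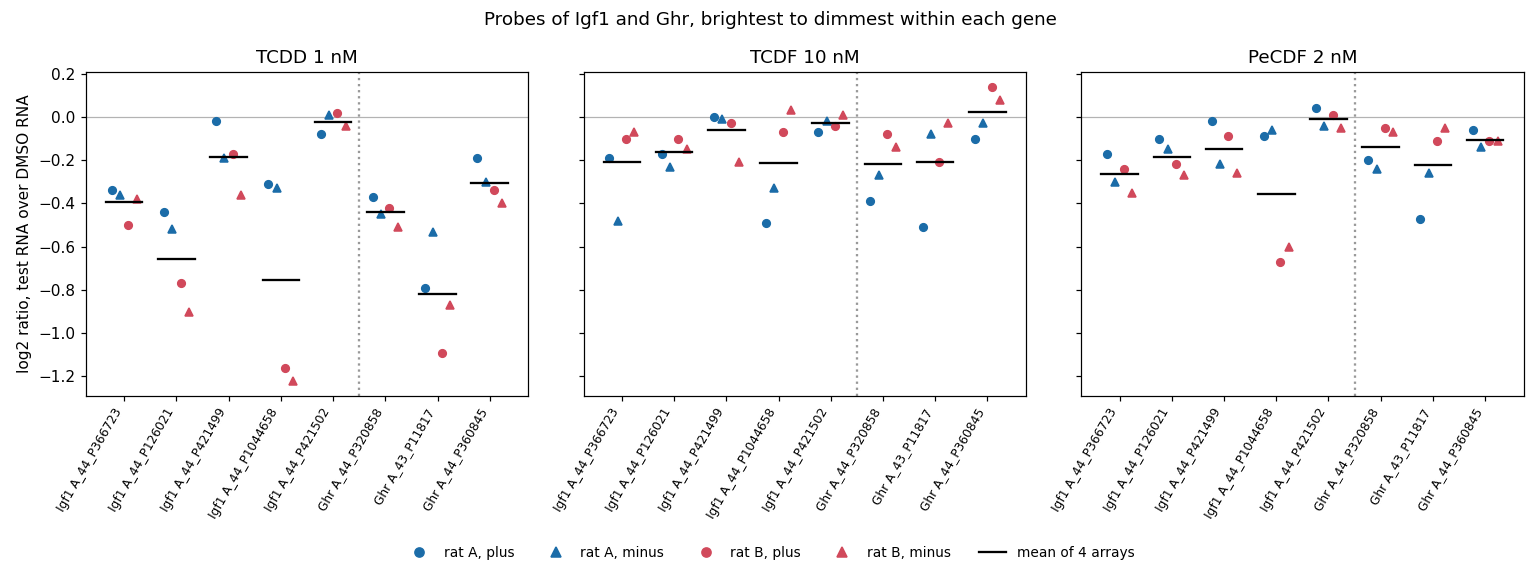
Log2 ratio of test RNA over DMSO RNA (y axis) for the 5 probes of Igf1 and the 3 of Ghr (x axis, brightest to dimmest within each gene) at the upper doses; points are single arrays by rat and dye orientation, and bars are means of 4 arrays. At TCDD 1 nM the Igf1 probes have means from -0.76 to -0.02, and the exon 6 probe reads -0.33 and -0.31 in rat A and -1.22 and -1.16 in rat B.

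Ghr, through which growth hormone acts on the hepatocyte, was lower with TCDD 1 nM. Its ratios were -0.37 and -0.45 in rat A and -0.42 and -0.51 in rat B. The 4 arrays lay close together and all below those of TCDD 0.01 nM, which ran from -0.13 to -0.08. The fit gave -0.44 ± 0.08, 1.35-fold lower (adjusted p = 0.00518, interval -0.61 to -0.26). Without rat B of that group the ratio was -0.41 and the adjusted p 0.0843, and with median centring -0.36 and 0.456. The TCDD dose step was -0.34 ± 0.11 and not called with all groups in the fit (adjusted p = 0.141), but it was called when the groups of the same session were fitted alone (adjusted p = 0.0466).

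The other Ghr probes were lower as well. A_43_P11817 read -0.79 and -0.53 in rat A and -1.09 and -0.87 in rat B with TCDD 1 nM, and fell by 0.82 ± 0.08, 1.76-fold (adjusted p = 0.00025). Its dose step was -0.72 ± 0.12 (adjusted p = 0.00969). A_44_P360845 fell by 0.31 ± 0.07 (adjusted p = 0.0139). All 3 probes of Ghr were thus called with TCDD 1 nM.

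With the furans Ghr did not pass. TCDF 10 nM gave -0.39 and -0.27 in rat A and -0.08 and -0.14 in rat B, with a fitted value of -0.22 ± 0.08 (adjusted p = 0.228, interval -0.39 to -0.05), which median centring turned to 0.25. PeCDF 2 nM gave -0.20 and -0.24 in rat A and -0.05 and -0.07 in rat B, with -0.14 ± 0.08 (adjusted p = 0.413, interval -0.31 to 0.03). On this brightest probe, A_44_P320858, all arrays of both groups were below 0 and those of rat A were the lower. At the lower doses and in untreated cells it lay between -0.10 and 0.06. In the fit of single probes, A_43_P11817 had -0.21 ± 0.08 with TCDF 10 nM (adjusted p = 0.321) and -0.22 ± 0.08 with PeCDF 2 nM (adjusted p = 0.199). A_44_P360845 had 0.02 ± 0.07 with TCDF 10 nM (adjusted p = 0.985) and -0.10 ± 0.07 with PeCDF 2 nM (adjusted p = 0.491).

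Igfbp1, the insulin-repressed binding protein, was higher with PeCDF 2 nM. Its ratios were 0.44 and 0.65 in rat A and 0.32 and 0.23 in rat B, above 0 on every array. The fit gave 0.41 ± 0.09, 1.33-fold higher (adjusted p = 0.0299, interval 0.21 to 0.60). The call was lost without either rat, at 0.27 (adjusted p = 0.436) without rat A and 0.54 (adjusted p = 0.0531) without rat B, and 7 of 15 alternatives kept it. Igf1 and Igfbp1 were 2 of 10 IGF axis genes called with PeCDF 2 nM, beside 4.45% of all genes called, 1.74% higher and 2.71% lower.

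Igfbp1 was not called at either TCDD dose. With TCDD 0.01 nM it read 0.35 and 0.21 in rat A and 0.40 and 0.32 in rat B, all above 0, with a fitted 0.32 ± 0.09 (adjusted p = 0.21, interval 0.12 to 0.51). With TCDD 1 nM it read 0.22 and 0.24 in rat A and 0.01 and -0.05 in rat B, with 0.10 ± 0.09 (adjusted p = 0.572, interval -0.09 to 0.30). The step between them was -0.22 ± 0.12 (adjusted p = 0.43), and the arrays of the 2 doses overlapped.

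In the other groups Igfbp1 was not called either. TCDF 10 nM gave 0.22 and 0.30 in rat A and 0.26 and 0.19 in rat B, with 0.24 ± 0.09 (adjusted p = 0.261). PeCDF 0.02 nM gave 0.22 ± 0.09 (adjusted p = 0.606) and TCDF 0.1 nM 0.12 ± 0.09 (adjusted p = 0.883). Untreated cells were the only group below DMSO on all 4 arrays, at -0.25 and -0.39 in rat A and -0.09 and -0.19 in rat B, with -0.23 ± 0.09 (adjusted p = 0.373).

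The level of Igfbp1 in DMSO cells stood apart between the rats. On the normalised log2 scale its DMSO level ran from 15.04 to 15.57 in rat A (median 15.36) and from 14.32 to 14.90 in rat B (median 14.74), with 14 arrays per rat and no overlap. For Igf1 the ranges were 15.15 to 15.53 and 15.29 to 15.55, and for Ghr 10.93 to 11.53 and 10.78 to 11.27, which overlap. Igfals, a dim gene, had no overlap either, at 6.18 to 6.50 in rat A and 6.55 to 6.80 in rat B. There rat B was the higher. The single Igfbp1 probe was saturated on 4 arrays in the test channel and on 4 in the DMSO channel.

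**Figure D3:**
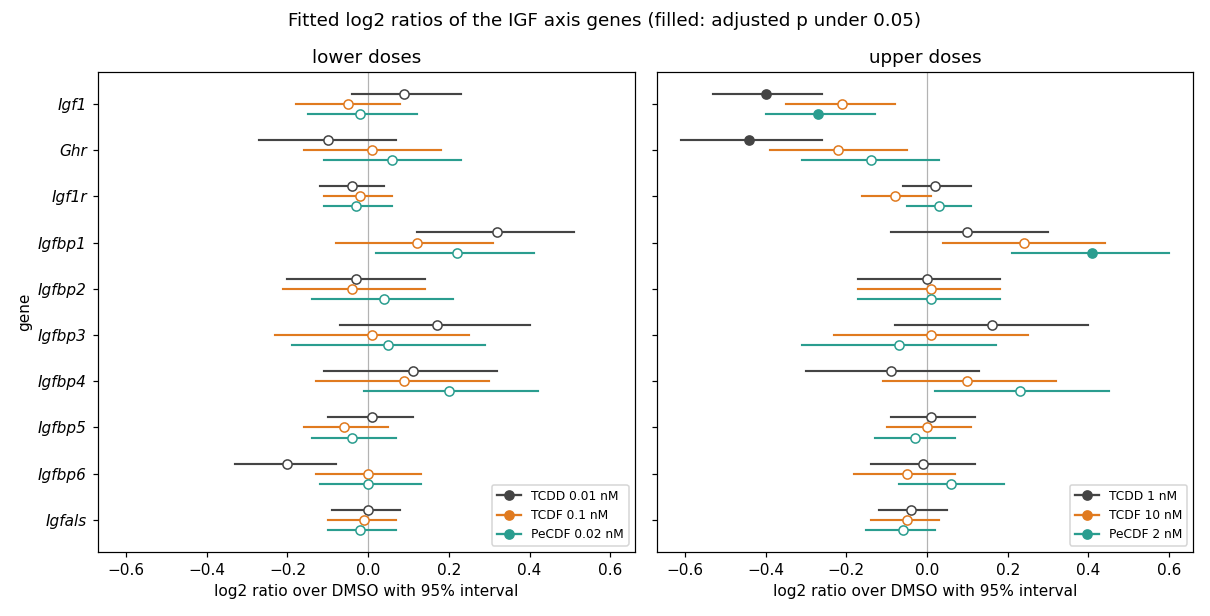
Fitted log2 ratio over DMSO (x axis) with its 95% interval (lines) for the 10 IGF axis genes (y axis) at the lower doses (left) and upper doses (right) of the 3 compounds; filled points passed an adjusted p under 0.05. No point is filled at the lower doses, and Igf1 and Ghr with TCDD 1 nM and Igf1 and Igfbp1 with PeCDF 2 nM are filled at the upper doses.

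Igfbp3, the main carrier of Igf1 in blood, was not called in any comparison, and its fitted ratios ran from -0.07 with PeCDF 2 nM to 0.17 with TCDD 0.01 nM, each ± 0.11. Its 4 arrays of TCDD 1 nM were all above 0, at 0.25 and 0.12 in rat A and 0.17 and 0.08 in rat B (fitted 0.16, adjusted p = 0.458). With TCDD 0.01 nM the rats stood apart, at 0.36 and 0.32 in rat A and 0.03 and -0.04 in rat B. The dimmer Igfbp3 probe, A_44_P180127, ran from -0.01 in untreated cells to 0.15 ± 0.07 with TCDD 1 nM (adjusted p = 0.198) and was not called in any comparison.

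Igfbp4, an inhibitory binding protein that the protease Pappa cleaves, was not called. With PeCDF 2 nM it read 0.46 and 0.41 in rat A and 0.04 and 0.03 in rat B (fitted 0.23 ± 0.10, adjusted p = 0.24; 0.0262 when the 28 arrays were fitted as samples with a dye term). Under TCDD 1 nM it read 0.06 and 0.16 in rat A but -0.28 and -0.29 in rat B (fitted -0.09 ± 0.10, adjusted p = 0.688). The 2 orientations of a rat were close and the 2 rats did not overlap.

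Igfals, which stabilises the circulating complex, ran from -0.06 with PeCDF 2 nM to 0.08 in untreated cells, each ± 0.04, with no call. Igf1r, the receptor kinase for the hormone, ran from -0.08 with TCDF 10 nM to 0.03 with PeCDF 2 nM, each ± 0.04, with no call. At TCDD 1 nM the intervals were -0.12 to 0.05 for Igfals and -0.06 to 0.11 for Igf1r. Both probes were close to background, with median DMSO signals of 325 and 321 over backgrounds of 284 and 286. There the offset of 50 added to each signal draws ratios towards 0, so these values were not set against those of brighter probes. The same limit applies to the Igfbp4 probe, at 361 over 292, and to the Ghr probe A_44_P360845, at 351 over 290.

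Igfbp2, Igfbp5 and Igfbp6 were dim: their probes were well above background on 22, 22 and 20 of 28 arrays in the DMSO channel and on 18, 21 and 21 in the test channel. Igfbp2 read -0.40 and 0.01 in rat A and -1.32 and 0.01 in rat B in untreated cells (plus and minus arrays), so its mean of -0.42 ± 0.08 (adjusted p = 0.115) rested on the 2 plus arrays. It became a call at -0.98 (adjusted p = 0.0207) with Agilent's log ratio and the series table. Without rat A of that group it was -0.65, the value of rat B alone. In the 6 treated groups its fitted ratios ran from -0.04 to 0.04. Igfbp5 ran from -0.06 to 0.01 over all groups, and its other probe, A_44_P264240, from -0.03 to 0.08, with no call. Igfbp6 ran from -0.20 to 0.06, and the lowest value, with TCDD 0.01 nM (adjusted p = 0.219), came from 1 array of rat A at -0.66 beside -0.06 to -0.03 on the others.

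No IGF axis gene was called by limma in the remaining 7 comparisons. The share of all genes called was 0.0431% in untreated cells, 0.451% with TCDD 0.01 nM, 0.00287% with TCDF 0.1 nM, 2.37% with TCDF 10 nM and 0% with PeCDF 0.02 nM, and between doses 0.0891% for TCDF and 0.0833% for PeCDF. At an unadjusted p under 0.05 stood 2 of 10 IGF axis genes in untreated cells, beside 10.7% of all genes, and 2 with TCDD 0.01 nM, beside 10.5%. With TCDF 10 nM there were 3, namely Igf1, Ghr and Igfbp1, beside 12.6% of all genes at that threshold. The count was 0 with TCDF 0.1 nM and 1 with PeCDF 0.02 nM, beside 7.62% of all genes in each, and between doses 0 for TCDF (4.54%) and 1 for PeCDF (5.15%).

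Other genes of the IGF system moved in both directions. Of 15 further ligands, receptors, proteases and inhibitors tested, 1 rose and 4 fell with TCDD 1 nM, with a median of -0.01. Beside them, 10.6% of all genes were called and 5.94% were lower. Stc2, a stanniocalcin that inhibits the protease Pappa, rose by 0.29 ± 0.05 with TCDD 1 nM (adjusted p = 0.00492) and by 0.27 ± 0.05 with PeCDF 2 nM (adjusted p = 0.015). Ctsd, a lysosomal protease that can cut binding proteins, fell by 0.21 ± 0.06 with TCDD 1 nM (adjusted p = 0.034; 0.0988 to 1 in the 6 alternatives of background correction and scaling), by 0.38 ± 0.06 with PeCDF 2 nM (adjusted p = 0.00628) and by 0.25 ± 0.06 with TCDF 10 nM (adjusted p = 0.0469; 0.29 higher with median centring). Adamts1, a secreted protease, and Lrp1, an endocytic receptor, fell by 0.21 ± 0.04 (adjusted p = 0.0112) and by 0.20 ± 0.04 (adjusted p = 0.00881) with TCDD 1 nM. Htra1, a protease of the binding proteins, was the fourth that fell. TCDF 10 nM gave 0 higher and 1 lower of the 15, beside 2.37% of all genes called. PeCDF 2 nM gave 1 higher and 2 lower, beside 4.45% of all genes called.

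In growth hormone receptor signalling, 3 of 17 genes rose and 2 fell with TCDD 1 nM, with a median of 0.03. Among all genes, 10.6% were called there and 5.94% were lower. Jak2, the kinase bound to Ghr, rose by 0.41 ± 0.07 (adjusted p = 0.00506), Sirpa, a membrane protein that Jak2 phosphorylates, by 0.66 ± 0.08 (adjusted p = 0.00079), and Lyn, a Src-family kinase, by 0.42 ± 0.05 (adjusted p = 0.000373). Stat3 fell by 0.25 ± 0.04 (adjusted p = 0.00463), and the repressor Bcl6 was the other gene that fell. Stat5b had 0.10 (adjusted p = 0.431), Socs2 0.03 (adjusted p = 0.752) and Cish 0.03 (adjusted p = 0.779). With PeCDF 2 nM, Lyn rose by 0.38 ± 0.05 (adjusted p = 0.0028) and Stat5a fell, beside 4.45% of all genes called. With TCDF 10 nM, Lyn rose by 0.24 ± 0.05 (adjusted p = 0.0269) and Stat3 fell by 0.28 ± 0.04 (adjusted p = 0.0107). Median centring put Stat3 0.28 higher there, and 2.37% of all genes were called. In each of these groups 15 of the 17 genes were not called.

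Among 17 liver genes whose expression follows the growth hormone pattern, or that encode factors acting on such genes, 6 fell and 0 rose with TCDD 1 nM, with a median of -0.10, beside 5.94% of all genes lower. The 6 became 3 with no background correction and 2 with median centring. The transcription factors Onecut1 and Foxa1 fell by 1.49 ± 0.16 (adjusted p = 0.000344) and by 0.91 ± 0.05 (adjusted p = 4.77e-06). Srd5a1, a steroid reductase, fell by 0.71 ± 0.09 (adjusted p = 0.000646), and Cyp2c13, a cytochrome P450, by 0.18 ± 0.04 (adjusted p = 0.0107). With no background correction Cyp2c13 was at -0.04 and not called (adjusted p = 0.14). Median centring left Cyp2c13 at -0.18 (adjusted p = 0.303) and Srd5a1 at -0.63 (adjusted p = 0.218), both not called. Onecut1, Foxa1 and Srd5a1 also fell with TCDF 10 nM, by 1.14, 0.52 and 0.70, and with PeCDF 2 nM, by 1.30, 0.46 and 0.41. With PeCDF 2 nM a single gene of the list rose, Foxa2. Among all genes, 1.74% were higher and 2.71% lower with PeCDF 2 nM, and 2.37% were called with TCDF 10 nM.

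The insulin and FoxO list holds the pathway that represses Igfbp1. In it 1 of 20 genes rose and 2 fell with TCDD 1 nM, with a median of -0.01. Across all genes 10.6% were called there and 5.94% were lower. Srebf1, a lipogenic factor that insulin raises, fell by 0.67 ± 0.07 (adjusted p = 0.000174). G6pc1, the glucose-6-phosphatase that insulin represses, fell as well, by 0.83 ± 0.12 (adjusted p = 0.00168). Trib3, an inhibitor of Akt, rose by 0.42 ± 0.09 (adjusted p = 0.0164). Pik3r1, a regulatory subunit of the kinase PI3K, was at -0.14 ± 0.04 and was not called (adjusted p = 0.0747). Srebf1 and G6pc1 fell with PeCDF 2 nM too, by 0.35 and 0.72, and with TCDF 10 nM, by 0.32 (0.20 higher with median centring) and 0.70. Pck1, another FoxO target, was not called with any upper dose. With PeCDF 2 nM and with TCDF 10 nM, 0 of the 20 genes rose and 2 fell, beside 4.45% and 2.37% of all genes called.

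Median centring ended most calls named from these 4 lists and the AHR targets: 13 of 19 with TCDD 1 nM, 11 of 13 with PeCDF 2 nM and 9 of 12 with TCDF 10 nM. With TCDD 1 nM, Jak2 then had an adjusted p of 0.337, Sirpa 0.151, Lyn 0.285 and Stat3 1. No gene of the first 2 lists, the other IGF genes and growth hormone receptor signalling, was called with TCDD 1 nM under that scaling.

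**Figure D4:**
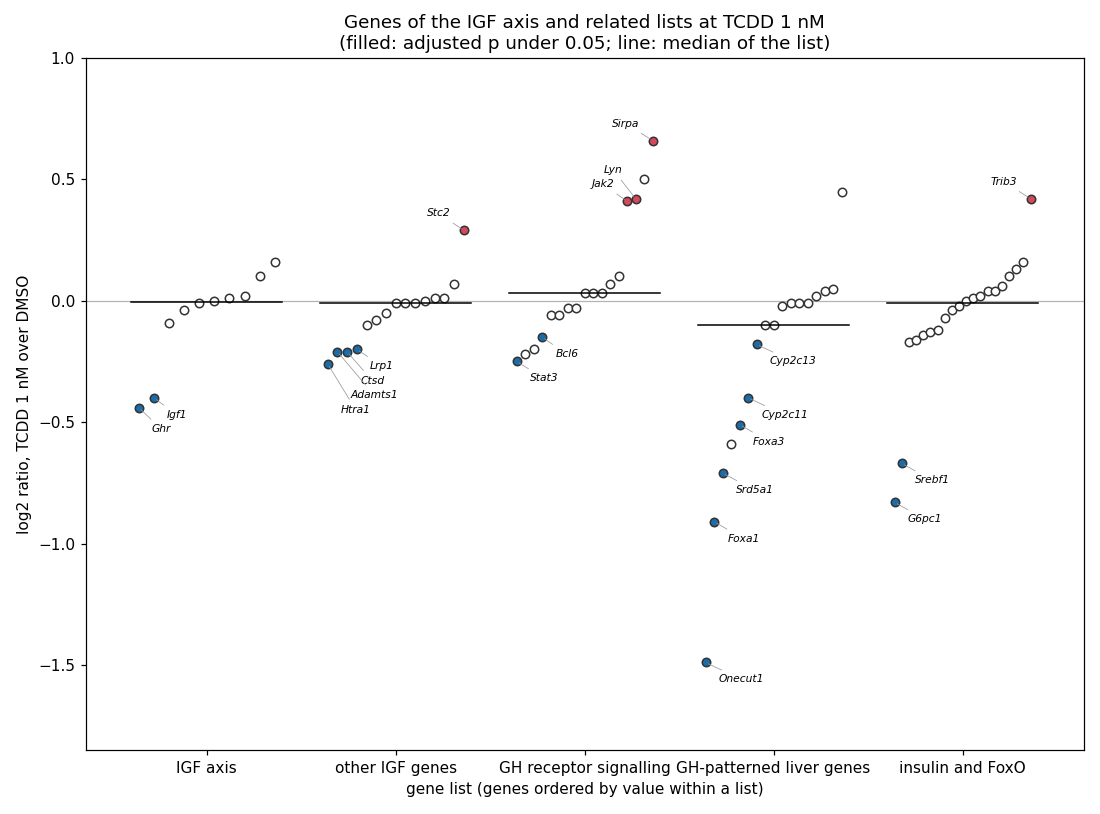
Log2 ratio of TCDD 1 nM over DMSO (y axis) for the tested genes of the IGF axis and of 4 related lists (x axis, ordered by value within each list); filled points passed an adjusted p under 0.05 and carry their names, and lines are list medians. The medians lie between -0.10 and 0.03, and the lowest points are Onecut1 and Foxa1.

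Markers of other cell types were also called with TCDD 1 nM, beside 10.6% of all genes called and 5.94% lower. Of 16 Kupffer and leukocyte markers 5 fell and 1 rose, and the log2 of the list's summed level, test minus DMSO, was -0.14 to -0.09 over the arrays, within the -0.23 to -0.07 of untreated cells. Of 12 cholangiocyte markers 2 fell, Anxa13 and Prom1, with a summed difference of -0.47 to -0.26 against -0.07 to 0.00 in untreated cells. A sum weighs bright genes most, and Epcam and Anxa13 were the brightest of the 12. The median ratio of that list was -0.08. Of 14 stellate cell and fibroblast markers 2 fell, with a summed difference of -0.23 to -0.16 against -0.09 to -0.02 in untreated cells. Of 9 endothelial markers none was called, with -0.11 to 0.07. Of 12 hepatocyte markers 1 rose and 2 fell. With PeCDF 2 nM, 4.45% of all genes were called, 1.74% higher and 2.71% lower. The Kupffer and leukocyte list had 1 gene higher with PeCDF 2 nM, Cd14, with a summed difference of -0.17 to 0.05. In that group the stellate list had 2 higher, Col3a1 and Dcn, and 1 lower, Col1a1, with -0.17 to -0.06, and the cholangiocyte list 1 lower, Anxa13, with -0.19 to -0.06. Of the endothelial markers none was called, with -0.28 to 0.00, and of the hepatocyte markers 1 rose, Tat. With median centring, 1 of these markers of all 5 lists was called with TCDD 1 nM, in the cholangiocyte list. The part of these cells in the Igf1, Ghr and Igfbp1 values was not tested.

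The genes most like each called IGF axis gene were taken as the 3 with the highest Pearson correlation over the 14 values of 2 rats in 7 groups, among 14855 genes with a symbol. They share arrays and DMSO RNA with it. For Igf1 they were Creb3l3 (0.938), Lman2 (0.935) and Nudt4 (0.933). For Ghr they were Srd5a2 (0.973), Or1f26 (0.973) and Thrsp (0.970). For Igfbp1 they were Rb1 (0.926), Tnpo2 (0.882) and Zdhhc5 (0.878).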

How the data were processed

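Spot intensity (mean signal and median local background, Alexa555 and Alexa647) was read from the scanner files deposited by the authors. Per the file headers these came from Agilent Feature Extraction A.7.5.1; the submitters' processing notes name 9.1. The deposited log10 ratio of the authors, in the scanner files and the series table, served as an alternative; the 2 agreed within 4.995e-06.

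In R 4.3.3 with limma 3.58.1, background was corrected by normexp (offset 50), arrays were normalised by loess with 2256 control spots at weight 0, and 1067 marked spots (0.0921%) were dropped. Log2 ratios were turned to test over DMSO RNA, and the 2 orientations of a rat were averaged. Pairs with 1 orientation missing gave no value (859 values, 0.176%). Probes were kept when well above background on all 4 test channels of a group or on 14 of 28 DMSO channels (37824 of 41012 probes). The brightest probe stood for a gene. Symbols came from the supplied RefSeq table by accession (8031 probes), gene identifier (8676), symbol (1374), synonym (426) or description (1); 22504 probes had none and are in every count.

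Means of 7 groups were fitted together (3.21 prior and 7 residual degrees of freedom). Same-numbered samples are the same rat; their deviations correlated between groups from -0.39 to 0.56 (median 0.12). The script was tested on simulated data. Extraction day coincides with dye orientation within a session, so days were examined as orientations. All IGF axis genes are named and values of all 18 of their probes given, with up to 4 genes of each related list by smallest p with TCDD 1 nM; Htra1, Bcl6, Stat5a, Stat5b, Socs2, Cish, Foxa2, Pck1 and the markers were named after their values were seen. Members and lists were chosen with earlier results of these data known. One gene of the insulin and FoxO list is not reported here and is in none of that list's values. Alternatives concerned background, scaling, filter, probe, dye, session, block and left-out rats; the brightest unsaturated probe was added after seeing the data. P-values measure the spread between the same 2 rats, pooled over the 7 groups. They do not measure the spread of a group alone or among further rats.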

Additional observations from a re-analysis of the deposited data

Results flagged for a closer look

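In 3 of 70 sets of 4 arrays (10 genes in 7 groups) a single array stood apart from the other 3, where chance alone does so in about 1 of 20. Igfbp6 with TCDD 0.01 nM read -0.66 on the plus array of rat A and -0.06 to -0.03 on the others. Igfals with TCDF 0.1 nM read 0.06 on the plus array of rat A and -0.04 to -0.03 on the others. Igf1 in untreated cells read 0.02 on the minus array of rat B and 0.09 on each of the others.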

How the results depend on the processing

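Blocking on the rat, the pairing of same-numbered samples, changed no count of called IGF axis genes: it gave 2 with TCDD 1 nM, 2 with PeCDF 2 nM, 1 for the TCDD dose step and 0 in each of the others. With TCDD 1 nM, Igf1 ran from -0.66 to -0.26 and Ghr from -0.46 to -0.35 over 16 alternatives each, 14 of them called; median centring gave 0 called genes. With PeCDF 2 nM the count was 0 with Agilent's log ratio, the series table, a normexp offset of 0, median centring, the brightest unsaturated probe or the groups of the same session alone, and 1 (Igf1) with no background correction. For the TCDD dose step it was 0 with a normexp offset of 0 or median centring, and 2 (Igf1 and Ghr) with 28 arrays and a dye term or the same session alone. The 28 arrays with a dye term, which treat both orientations as samples, also gave 3 with TCDF 10 nM (Igf1, Ghr and Igfbp1), 3 with PeCDF 2 nM (Igf1, Igfbp1 and Igfbp4) and 1 with TCDD 0.01 nM (Igfbp1). In untreated cells Agilent's log ratio and the series table gave 1 (Igfbp2). Leaving out 1 rat of a group gave 0 to 1 in untreated cells, 0 to 1 with TCDD 0.01 nM (Igfbp6), 0 to 2 with TCDD 1 nM, 0 with PeCDF 2 nM and 0 to 2 for the TCDD step. Median centring gave 214 called genes in all with TCDD 1 nM. The cause of these differences was not tested, and signal over background limits Igfbp2, Igfbp5 and Igfbp6. Of 100 ratios, 35 had the opposite sign in some alternative, 65 values in all, none of them called either way. Agilent's log ratio and, equally, the series table gave for TCDD 1 nM Igfbp5 -0.06, Igfbp6 0.01, and for TCDF 10 nM Igfbp2 -0.04, Igfbp3 -0.03, and for TCDD step Igfbp5 -0.10. Median centring gave for untreated Igfbp3 0.03, and for TCDD 0.01 nM Igfbp5 -0.02, and for TCDD 1 nM Igfbp6 0.01, and for TCDF 0.1 nM Igf1 0.09, Igfals 0.01, and for TCDF 10 nM Igf1 0.42, Igfbp2 -0.11, Ghr 0.25, and for PeCDF 0.02 nM Igf1 0.05, and for TCDF step Igf1 0.33, Igfbp2 -0.09, Igfbp5 -0.06, Ghr 0.18. No background correction gave for TCDF 10 nM Igfbp3 -0.02. A normexp offset of 0 gave for TCDD 1 nM Igfbp5 -0.11, and for TCDD step Igfbp3 0.01, Igfbp5 -0.11. Quantile scaling gave for TCDF 10 nM Igfbp2 -0.01, Igfbp3 -0.01, and for TCDD step Igfbp3 0.04. The brightest unsaturated probe gave for TCDF 0.1 nM Igf1 0.04, and for PeCDF 0.02 nM Igf1 0.07. Leaving out 1 rat of a group gave for untreated Igfbp3 -0.07 to 0.05, Ghr -0.02 to 0.07. It gave for TCDD 0.01 nM Igfbp3 -0.01 to 0.34, Igfbp5 -0.02 to 0.03. It gave for TCDD 1 nM Igfbp1 -0.02 to 0.23, Igfbp4 -0.28 to 0.11, Igfbp5 -0.06 to 0.09, Igfbp6 -0.04 to 0.02. It gave for TCDF 0.1 nM Igf1 -0.14 to 0.04, Igfbp3 -0.16 to 0.17, Igfbp5 -0.15 to 0.03, Igfals -0.04 to 0.02, Ghr -0.14 to 0.16. It gave for TCDF 10 nM Igfbp2 -0.02 to 0.03, Igfbp3 -0.09 to 0.10. It gave for PeCDF 0.02 nM Igf1 -0.06 to 0.03, Igfbp3 -0.13 to 0.22, Igfals -0.04 to 0.01, Ghr -0.04 to 0.16, Igf1r -0.09 to 0.04. It gave for PeCDF 2 nM Igfbp2 -0.01 to 0.02, Igfbp3 -0.16 to 0.02. It gave for TCDD step Igfbp3 -0.18 to 0.16, Igfbp5 -0.06 to 0.08, Igfals -0.10 to 0.03. It gave for TCDF step Igfbp4 -0.06 to 0.09, Igfbp5 -0.03 to 0.15. It gave for PeCDF step Igfbp3 -0.29 to 0.06, Igfbp4 -0.17 to 0.23, Igf1r -0.01 to 0.12.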
